A study of Mus musculus with 24 samples.

Results

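Female mice that stayed with their mother from postnatal day 21 (p21) to day 28 (p28) were compared with females taken at p21. The tissue was the inguinal white adipose depot, the subcutaneous fat pad of the groin. The comparison uses 8 of the 24 libraries of the series, chosen by sex, age and weaning label: 4 females taken at p21 (animals 30, 36, 55 and 56) and 4 taken at p28 after delayed weaning (DW; animals 76, 77, 82 and 83). DW means that the pup was kept with its mother after day 21. Females separated from the mother at day 21 and taken at p28 (standard weaning, SW, 4 animals), and males taken at p21 and at p28 after DW (4 animals each), are used only beside results of the DW females. Polyadenylated RNA was sequenced, with 1 library per animal. Strain, litter and diet are not given in the sources used here, so littermates cannot be told from animals of separate litters, and a p-value measures only the spread between these animals.

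A white fat depot grows after birth by the division and differentiation of progenitor cells in its stroma and by the filling of adipocytes with lipid. Its lipid comes from milk fat taken up as fatty acids and from sugar turned into fatty acids in the adipocyte (de novo lipogenesis), with desaturases and elongases shaping the chains. In young mice the inguinal depot also holds thermogenic (beige) adipocytes, which burn fuel through an uncoupling protein, and in females it surrounds a mammary gland. Macrophages, vessels, nerves and blood are part of the dissected tissue.

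The libraries held 94050812 to 121233856 reads in listed genes at p21 and 84973443 to 123859413 at p28 DW. No library of the 8 had a read in the 4 listed genes of the Y chromosome. Values below are the deposited ones, reads divided by a factor for each library, and changes are on the log2(value + 1) scale. Fat markers were present in every animal: Adipoq (adiponectin) was 872 to 1456 at p21 and 1186 to 1491 at DW, and Fabp4 (the fatty acid binding protein of adipocytes) was 11879 to 15751 and 12425 to 16026. Skeletal muscle markers, summed over 20 genes, ranged from 48.7 to 2147 at p21 and from 56.8 to 3136 at DW, with p21 animals 30 and 36 and DW animal 83 highest, and none of the 20 was called.

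DW animals 82 and 83 stood apart from DW animals 76 and 77. Genes of the mitochondrial DNA took 13.2% and 13.7% of reads in animals 82 and 83, against 23.6% and 19.2% in animals 76 and 77 and 16.6% to 21.2% at p21. Across genes, the deviation of a library from the typical library was correlated with the GC content of the transcript at r = -0.45 and -0.63 in animals 82 and 83, and at r = 0.39 and 0.24 in animals 76 and 77. At p21, r was 0.30 in animal 36 and between -0.08 and -0.06 in the others. Calls are by all 4 DW animals unless a pair is named, and fits of either pair alone against the 4 p21 animals are given beside many, not all, of them. Among the DW females the pair, the mitochondrial share and the GC trend cannot be told apart.

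By limma, 1938 of 16005 genes were called at a Benjamini-Hochberg adjusted p under 0.05 (12.1%): 952 were higher at DW (5.95%) and 986 lower (6.16%). The median change over all genes was 0.00 and the median size of a called change 0.56. A rise of more than 1 was called for 144 genes and a fall of more than 1 for 54. In 2409 genes (15.1%) the DW animals did not overlap the p21 animals, and 1530 of these were called.

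The fit of animals 76 and 77 alone against p21 called 1392 genes (8.7%), 739 higher (4.62%) and 653 lower (4.08%). With animals 82 and 83 alone, 5743 genes were called (35.9%), 2759 higher (17.2%) and 2984 lower (18.6%). In these fits the spread of a pair is assumed to be like that of the other groups. Counts of list members called with all 4 animals or with a pair alone are to be read beside the shares of all genes called in the same fit. The pairs also differed in direction: 137 genes were called in both pairs with opposite signs. Against this, 567 genes (3.54%) were called in 1 direction with all 4 animals and with either pair, 328 of them higher and 239 lower. Of the other called genes 1123 were called in the same direction with animals 82 and 83 but not with animals 76 and 77, 187 the other way round, and 61 with neither pair. Median transcript GC content was 51.3% for rises and 47.4% for falls called with animals 76 and 77, and 44.4% for rises and 54.3% for falls called with animals 82 and 83. Over all genes it was 49.9%. A fit on GC-corrected values called 2475 genes and kept 1699 of the 1938.

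**Figure D1:**
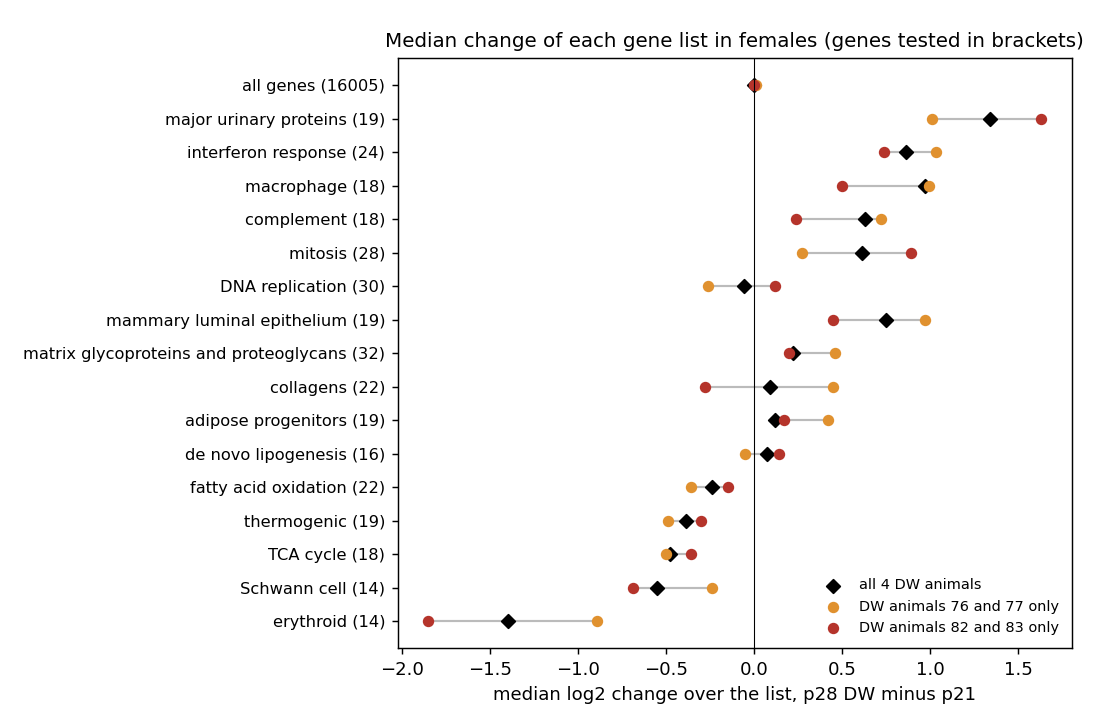
Median log2 change from p21 to p28 DW (x axis) of each gene list, with the genes tested in brackets, for all 4 DW females, animals 76 and 77, and animals 82 and 83. The interferon, macrophage, erythroid and TCA cycle medians lay on 1 side of zero with either pair, and those of collagens, DNA replication and de novo lipogenesis changed side.

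Interferon response genes are described first, since they rose with either pair. Interferons are secreted signals of antiviral defence that switch on a common set of genes, many of which carry a DNA element called the interferon-stimulated response element. It was searched as the letters TTTCNNTTTC, on both strands, in the window from 250 bases before to 50 bases after each gene start in RefSeq (build GRCm38.p6). Of the 24 genes of the list 17 had a promoter entry, and 11 of these held the letters, against 487 of 12566 tested genes with an entry (3.88%). The letters were not in the windows of Cxcl9, Ifi44, Ifit2, Irf7, Oasl2 and Xaf1. A match describes the sequence only. Stretches from 5 rising genes are printed to show the element, in the direction of the gene, with the matching letters in capitals (a match on the other strand appears as its reverse complement):
Isg15: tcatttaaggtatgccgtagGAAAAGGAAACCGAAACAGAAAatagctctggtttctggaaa
Ifit1: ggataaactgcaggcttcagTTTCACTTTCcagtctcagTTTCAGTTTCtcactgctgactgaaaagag
Oas1a: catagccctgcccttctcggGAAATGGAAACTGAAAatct
Bst2: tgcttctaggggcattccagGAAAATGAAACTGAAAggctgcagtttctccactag
Gbp3: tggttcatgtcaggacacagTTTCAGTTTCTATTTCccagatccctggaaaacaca
The stretches lie at chr4:156200855-156200916 (minus strand), chr19:34640765-34640833 (plus strand), chr5:120907526-120907565 (minus strand), chr8:71537567-71537622 (minus strand) and chr3:142559979-142560034 (plus strand), in this order. Isg15 holds 3 overlapping matches, Oas1a, Bst2 and Gbp3 hold 2 overlapping ones, and Ifit1 holds 2 separate ones.

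Of the 24 interferon response genes, 17 rose and none fell, beside 5.95% and 6.16% of all genes, and the median change was 0.86. With animals 76 and 77 alone 18 rose (median 1.03), with animals 82 and 83 alone 15 rose (median 0.74), and 11 were called in all 3 fits. Isg15, a ubiquitin-like protein that is joined to other proteins, was 3.88, 7.21, 4.12 and 4.18 in the p21 females and 11.2, 12.0, 17.1 and 14.9 in the DW females. Every DW animal was above every p21 animal (log2 change 1.36 ± 0.25 SE, limma adjusted p = 0.00134). Ifit3, of a family that binds foreign RNA, was 15.7, 22.6, 11.6 and 12.5 at p21 and 46.9, 57.0, 32.9 and 39.4 at DW, again without overlap (log2 change 1.45 ± 0.29 SE, limma adjusted p = 0.00239). Bst2 (tetherin, which holds budding virus at the cell surface) was 10.7 to 13.6 at p21 and 28.5 to 37.2 at DW (log2 change 1.33 ± 0.18 SE, limma adjusted p = 0.000117).

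The other called members rose by 0.53 (Gbp2) to 1.52 (Ifi44). They included the RNA sensors Oas1a (1.18) and Oas2 (0.96), the ISG15 protease Usp18 (1.11) and the guanylate-binding protein Gbp3 (0.81). Members without a call included Stat2 (0.10, limma adjusted p = 0.666) and Mx1 (0.48, limma adjusted p = 0.234). Irf7, the factor that amplifies the response, was 43.7 and 47.5 in DW animals 76 and 77, above the p21 range of 17.4 to 25.0, and 23.7 and 19.8 in animals 82 and 83, inside it (0.59, limma adjusted p = 0.115). The chemokine Cxcl9 showed the same split, with 109 and 83.1 in animals 76 and 77 and 36.2 and 43.2 in animals 82 and 83 against 31.4 to 48.3 at p21. The GC-corrected fit called 17 of the 24 higher, with Irf7 among them (0.73, limma adjusted p = 0.014) and Cxcl9 not (0.51, limma adjusted p = 0.217). Oas2 was not called with animals 82 and 83 alone (0.53, limma adjusted p = 0.261), nor was Oasl2. In SW females 19 of the 24 rose from p21, beside 7.39% of all genes, with a median of 1.08. In DW males 15 rose, beside 8.86% of all genes, with a median of 0.77. The SW and DW changes share the p21 females. With all 4 DW animals, and with animals 76 and 77 alone, limma called no member between DW and SW females. With animals 82 and 83 alone 6 members were lower than in SW, beside 20.8% of all genes, among them Cxcl9 (-1.24, limma adjusted p = 1.08e-05) and Irf7 (-1.11, limma adjusted p = 0.00102).

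**Figure D2:**
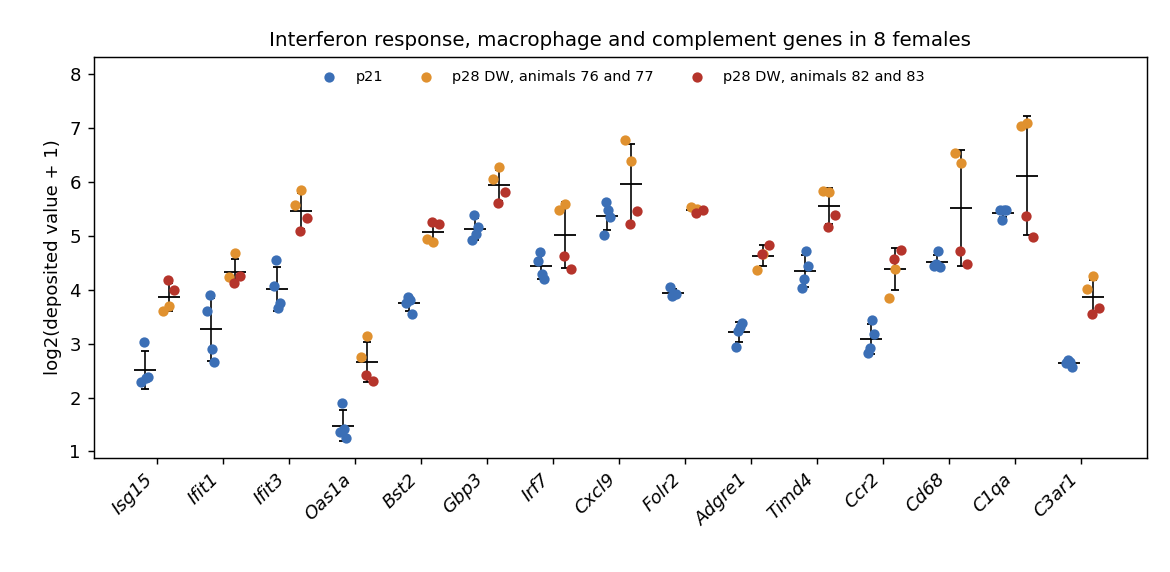
Level of 15 interferon response, macrophage and complement genes as log2(deposited value + 1) (y axis) in each p21 female and each p28 DW female, with animals 76 and 77 and animals 82 and 83 in separate colours. Isg15, Bst2, Folr2 and Adgre1 show no overlap of the groups, whereas Irf7, Cxcl9, Cd68 and C1qa of animals 82 and 83 lie at or near the p21 level.

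Among 18 macrophage markers 10 rose and none fell, with a median of 0.97, and 7 were also called with either pair. In bulk tissue, more cells of a type and more RNA per cell cannot be told apart. Folr2, a folate receptor of tissue-resident macrophages, was 15.6, 13.7, 14.1 and 14.2 at p21 and 45.4, 44.0, 42.1 and 43.8 at DW. Animals within a group were close and the groups were far apart (log2 change 1.54 ± 0.18 SE, limma adjusted p = 2.34e-05). Adgre1, which encodes the macrophage surface protein F4/80, was 6.7 to 9.41 at p21 and 19.6 to 27.4 at DW (log2 change 1.41 ± 0.19 SE, limma adjusted p = 0.000134). Timd4, a receptor for dying cells on resident macrophages, rose by 1.21, and Ccr2, the chemokine receptor of monocytes recruited from blood, by 1.30. Csf1r, the growth factor receptor macrophages depend on, rose by 0.94, Itgam by 1.18 and Mrc1 by 1.08, the last without a call by animals 76 and 77 alone (0.94, limma adjusted p = 0.103).

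Not all macrophage markers behaved this way. Lyve1 was at -0.01 (limma adjusted p = 0.991). Cd68, a lysosomal protein, split by pair, with 92.0 and 80.8 in animals 76 and 77, 25.2 and 21.2 in animals 82 and 83 and 20.4 to 25.3 at p21. Its call with all 4 animals (1.00, limma adjusted p = 0.0358) was not held by animals 82 and 83 alone (0.08, limma adjusted p = 0.758). Cd163, a haemoglobin scavenger receptor, was likewise 143 and 159 and 49.8 and 58.5 in the pairs, against 31.9 to 57.8 at p21. The summed level of the 18 genes was 4046 to 6221 at p21 and 4719 to 6925 at DW, and Lpl, which adipocytes also make, gave 4941 of 5267 in p21 animal 30. No B cell marker of 12 was called, and of 14 T cell markers Cd3e fell (-0.69).

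Complement genes, whose products tag cells and debris for clearance, rose in 8 of 18 cases with no fall (median 0.63). C3ar1, the receptor for the C3a fragment, was 4.93 to 5.52 at p21 and 10.7 to 18.0 at DW (log2 change 1.22 ± 0.20 SE, limma adjusted p = 0.000496). Properdin (Cfp) rose by 0.79, C6 by 1.05 and C2 by 0.63. The call of C2 was not held by animals 76 and 77 alone. All 3 chains of C1q, made by macrophages, split by pair. C1qb was at 1.49 with animals 76 and 77 and 0.38 with animals 82 and 83 (limma adjusted p = 0.000214 and 0.157), and C1qc at 1.67 and 0.47 (limma adjusted p = 4.56e-05 and 0.0728). C1qa, at 1.63 and -0.27, was 129.9 and 135 in animals 76 and 77 and 40.1 and 30.5 in animals 82 and 83, against 38.5 to 43.6 at p21. With all 4 animals C1qb and C1qc were called, and C1qa was not (limma adjusted p = 0.189). The GC-corrected fit called 9 complement genes higher, C1qa among them (0.87, limma adjusted p = 0.00831). In animals 76 and 77 alone 9 complement genes rose and none fell. In animals 82 and 83 alone 7 rose and 2 fell, namely C3 (-0.51) and the adipocyte product adipsin, Cfd (-0.92).

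Red cell genes had the lowest median of the lists examined, -1.40, and 9 of 14 erythroid markers fell while none rose. Alas2, the first enzyme of haem synthesis in red cell precursors, was 75.5, 72.7, 86.9 and 119 at p21 and 24.5, 17.5, 11.2 and 8.37 at DW (log2 change -2.53 ± 0.37 SE, limma adjusted p = 0.000226). The globins Hba-a1 (-1.56), Hba-a2 (-1.46), Hbb-bs (-1.74) and Hbb-bt (-1.83) and the membrane protein Slc4a1 (band 3, -1.98) fell as well. Globin copies are nearly identical and can share reads, so single globins are uncertain. Outside the list Bpgm, which makes the phosphoglycerate that tunes haemoglobin, was 66.1 to 113 at p21 and 16.1 to 40.2 at DW (log2 change -1.68 ± 0.25 SE, limma adjusted p = 0.000226).

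In each of these genes the DW animals lay below the p21 animals without overlap. Hba-a1 was 184 and 148 in animals 76 and 77 and 68.1 and 70.5 in animals 82 and 83, against 271 to 381 at p21. With animals 76 and 77 alone 2 of the 14 markers were called (median -0.89), and with animals 82 and 83 alone 8 were (median -1.85). The 4 globins and Slc4a1 were among those that animals 76 and 77 alone did not call. edgeR's quasi-likelihood test called 5, with Slc4a1 (edgeR adjusted p = 0.062), Hbb-bs (0.0694) and Hba-a2 (0.0507) not among them, and limma without p21 animal 56 called 4. The summed level was 969 to 1310.1 at p21, 269 to 605 at DW and 429 to 561 in SW females. Whether blood left in the tissue differed between the groups was not tested.

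Genes of cell division rose in the DW females to an extent that depended on the pair. Of 28 mitosis genes 15 rose and none fell, with a median of 0.61. Cdk1, the kinase that drives entry into mitosis, was 6.16, 6.26, 5.68 and 6.52 at p21, 7.48 and 8.32 in DW animals 76 and 77, and 27.3 and 20.6 in animals 82 and 83. All DW animals were above all p21 animals (log2 change 1.05 ± 0.28 SE, limma adjusted p = 0.0162), and animals 82 and 83 were far above the rest. Mki67, a chromosome coat protein of dividing cells, was more even, with 52.1 to 72.7 at p21 and 78.8, 107, 99.5 and 95.5 at DW (log2 change 0.59 ± 0.14 SE, limma adjusted p = 0.00721). Cenpe, a kinetochore motor, was 4.33 to 5.8 at p21 and 9.39 to 14.3 at DW (log2 change 1.06 ± 0.15 SE, limma adjusted p = 0.000133).

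For animals 76 and 77 alone only Cenpe and the checkpoint kinase Bub1b were called (median of the list 0.27), and with animals 82 and 83 alone 23 of 28 were (median 0.89). Relative to the p21 mean, 23 of the 28 genes were higher in animal 76, 28 in animal 77, 27 in animal 82 and 26 in animal 83, with median differences of 0.16, 0.38, 0.97 and 0.81. In the p21 females themselves the median difference lay between -0.09 and 0.17. Without p21 animal 30 or without animal 55 the count of calls was 9. Plk1 (0.06), Ube2c (0.10) and Aurka (0.30), which also act in mitosis, were not called. The median GC content of the list was 46.4%, and the GC-corrected fit called 16.

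The mitosis genes were also higher in DW than in SW females of the same age. That comparison called 204 of all genes (1.27%), 74 of them higher in DW (0.462%), and 20 of the 28 mitosis genes were among the 74. These calls take the spread from all 6 groups. With the DW and SW females fitted alone, limma called 1 gene, and it was lower in DW. edgeR's quasi-likelihood test over all groups called 63 genes higher in DW. Cdk1 was 4.27 to 5.43 in SW females (DW minus SW 1.34, limma adjusted p = 0.0164). Top2a, which untangles DNA before division, was 23.4 to 33.1 in SW and 36.0 to 77.1 in DW females (1.02, limma adjusted p = 0.00561). Mki67 was lower in every SW female than in every DW female (0.68, limma adjusted p = 0.0137).

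The pairs parted here too. With DW animals 82 and 83 alone 26 of the 28 were higher than in SW, beside 16.3% of all genes. With animals 76 and 77 alone limma called no gene of the table higher in DW (0%), with 274 at an unadjusted p under 0.05, and the median of the list was 0.59. From p21 to SW 1 of the 28 fell and none rose (median -0.29), beside 4.23% and 7.39% of all genes. In DW males 8 of 28 rose (median 0.35), beside 8.86% of all genes.

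Of 30 DNA replication genes, which copy the genome before division, 2 fell and none rose with all 4 DW animals. The fallers were Uhrf1 (-0.59) and Ccne1 (-0.34), and the median was -0.06. Animals 82 and 83 alone called 5 higher and 3 lower (median 0.12), beside 17.2% and 18.6% of all genes. Animals 76 and 77 alone called none higher and 3 lower (median -0.26), beside 4.62% and 4.08% of all genes. Mcm2, Mcm5 and Mcm6, subunits of the replicative helicase, were at -0.25, -0.34 and -0.13 without a call. Rrm2, which supplies nucleotides for DNA, was 7.2 and 9.25 in DW animals 76 and 77 and 25.3 and 18.2 in animals 82 and 83, against 8.9 to 12.5 at p21 (0.34, limma adjusted p = 0.385). It was called higher with animals 82 and 83 alone (0.98, limma adjusted p = 0.000191). Against SW females limma called no replication gene with all 4 DW animals, and 19 of 30 higher with animals 82 and 83 alone, beside 16.3% of all genes.

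Many promoters of late cell cycle genes carry a short element with the letters TTTGAA, bound by the MuvB complex. On either strand these letters were in the RefSeq window of 19 of the 24 mitosis genes with an entry, against 1909 of 12566 genes (15.2%), and they were not in that of Cenpe. Stretches of 3 rising genes show the letters in capitals:
Cdk1: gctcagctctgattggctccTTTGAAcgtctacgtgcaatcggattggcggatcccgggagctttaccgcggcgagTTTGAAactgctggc
Ncapg: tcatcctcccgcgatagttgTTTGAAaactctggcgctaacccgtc
Prc1: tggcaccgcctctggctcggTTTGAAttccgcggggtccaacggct
They are RefSeq sequence (GRCm38.p6) at chr10:69352913-69353003 (minus strand), chr5:45669875-45669920 (plus strand) and chr7:80294426-80294471 (plus strand). The condensin subunit Ncapg rose by 0.80 and Prc1, which bundles the spindle midzone, by 0.65.

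**Figure D3:**
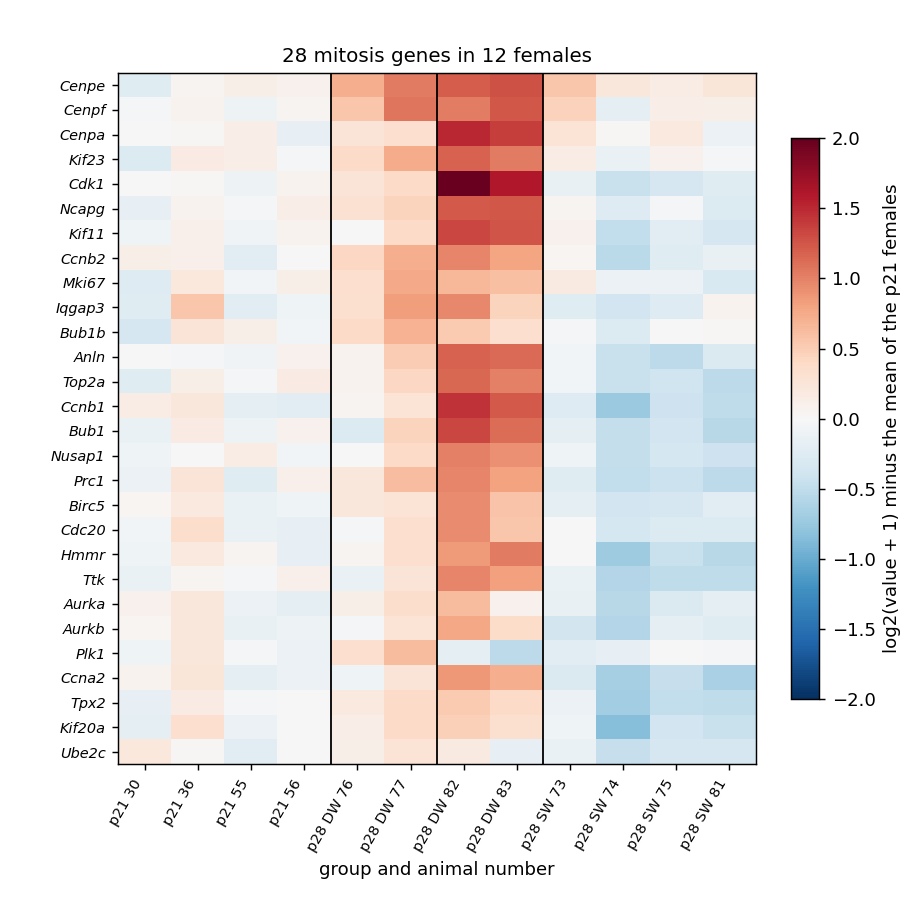
Difference in log2(value + 1) from the mean of the p21 females (colour) for 28 mitosis genes (rows) in 12 females (columns: p21, p28 DW and p28 SW animals). DW animals 82 and 83 have median differences of 0.97 and 0.81, animals 76 and 77 have 0.16 and 0.38, and the SW animals lie between -0.46 and -0.08.

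Lipid genes differed in direction. Of 14 elongases and desaturases 4 rose and 1 fell, beside 5.95% and 6.16% of all genes. The pairs alone gave 2 rises and no fall (animals 76 and 77) and 5 rises and 1 fall (animals 82 and 83). Of 24 cholesterol synthesis genes 3 fell and none rose. For these, animals 76 and 77 alone gave 3 falls and no rise, beside 4.08% and 4.62% of all genes. Animals 82 and 83 alone gave 6 falls and 3 rises, beside 18.6% and 17.2% of all genes. Of 16 de novo lipogenesis genes 2 rose and 2 fell, with a median of 0.07. With animals 76 and 77 alone 1 rose, and with animals 82 and 83 alone 5 rose and 3 fell. Scd1, the desaturase that makes oleate, was 4595, 8415, 11295 and 13464 at p21 and 29925, 36783, 31400.0 and 28863 at DW (log2 change 1.85 ± 0.41 SE, limma adjusted p = 0.00515). The DW animals were close to each other, while p21 animal 30 was the lowest of its group. Its neighbour Scd3 was 0.744 to 1.51 at p21 and 3.37 to 10.1 at DW (log2 change 1.69 ± 0.24 SE, limma adjusted p = 0.000191). Scd genes are alike in sequence and may share reads. Elovl6, which lengthens palmitate, was 93.0 to 319.5 at p21 and 381 to 729.7 at DW (log2 change 1.18 ± 0.34 SE, limma adjusted p = 0.0277), with 0.81 in animals 76 and 77 alone (limma adjusted p = 0.251).

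Fatty acid synthase (Fasn, -0.11) and ATP citrate lyase (Acly, 0.06), central enzymes of the pathway, were not called. Fasn was 3636, 8433, 5831 and 7353 at p21 and 6448, 7043, 5940.5 and 3554 at DW, with p21 animal 30 and DW animal 83 lowest. Mlxipl, the sugar-sensing factor ChREBP, was 373 to 415 at p21, 291 and 309.6 in animals 76 and 77 and 186 and 117 in animals 82 and 83 (log2 change -0.90 ± 0.22 SE, limma adjusted p = 0.00912). Acacb, the mitochondrial acetyl-CoA carboxylase, fell as well (-0.81), as did Fads1, a desaturase on the way to arachidonate (-0.68). The falls of Mlxipl, Acacb and Fads1 were called with animals 82 and 83 alone and not with animals 76 and 77 alone, where Acacb was at -0.41 (limma adjusted p = 0.236).

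Of 15 triglyceride assembly genes 2 fell and 2 rose, beside 6.16% and 5.95% of all genes. Gpd1, which makes the glycerol backbone, fell by 1.00 and Lpin1 by 0.55. The risers were the acyltransferases Mogat1 (0.88) and Mogat2 (0.64). The calls of Gpd1, Lpin1 and Mogat1 were not held by animals 76 and 77 alone, which gave Gpd1 -0.54 (limma adjusted p = 0.148) against -1.45 with animals 82 and 83. None of 13 fatty acid uptake genes was called with all 4 animals or with animals 76 and 77 alone, among them Lpl (0.11), which frees fatty acids from circulating fat. Animals 82 and 83 alone called 3 higher and 4 lower, and the carrier Cd36, at 0.40 with all 4, was at 0.64 there (limma adjusted p = 0.0107).

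Elovl3 and Slc25a1 differed between DW and SW females. Elovl3, an elongase of very long chains, was 1.14 to 2.26 at p21, 1.31 to 2.52 at DW and 3.09 to 13.6 in SW females. From p21 it was at 0.08 with DW and 1.58 with SW, and DW minus SW was -1.50 (limma adjusted p = 0.0368). Slc25a1, which exports citrate from mitochondria for lipid synthesis, was at 0.09 with DW and 1.22 with SW, and DW minus SW was -1.13 (limma adjusted p = 0.00586). With DW animals 76 and 77 alone neither was called against SW (Elovl3 -1.34, limma adjusted p = 0.567, Slc25a1 -0.78, limma adjusted p = 0.299). With animals 82 and 83 alone both were (-1.67, limma adjusted p = 0.00597, and -1.49, limma adjusted p = 2.28e-05). For Scd1 the DW and SW changes were 1.85 and 1.98 (DW minus SW -0.13, limma adjusted p = 0.89).

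Of 18 genes of the TCA cycle, which oxidises acetyl-CoA, 10 fell and none rose, beside 6.16% and 5.95% of all genes, with a median of -0.48. Dlst, a subunit of oxoglutarate dehydrogenase, was 593, 626, 584 and 511 at p21 and 380.4, 385, 336 and 294 at DW, without overlap (log2 change -0.73 ± 0.13 SE, limma adjusted p = 0.000723). Idh3a, of isocitrate dehydrogenase, was 542 to 619 at p21 and 295 to 460.3 at DW (log2 change -0.71 ± 0.15 SE, limma adjusted p = 0.00387), and citrate synthase (Cs) changed by -0.58. With animals 76 and 77 alone 9 fell, with animals 82 and 83 alone 7 fell and 2 rose, and 4 were called in all 3 fits (Dlst, Idh3a, Idh3b and Sucla2). Fumarase (Fh1) was called in opposite directions, at -0.46 in animals 76 and 77 (limma adjusted p = 0.0139) and 0.30 in animals 82 and 83 (limma adjusted p = 0.0476).

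Of 22 fatty acid oxidation genes 3 fell, Acadm (-0.49), Acadvl (-0.50) and Etfdh (-0.55), and 1 rose. The riser was Cpt1a, which commits fatty acids to entry into mitochondria (0.50, limma adjusted p = 0.00404), and its change was 0.59 and 0.41 in the pairs. Animals 76 and 77 alone called 4 of the 22 lower and 1 higher, and animals 82 and 83 alone 5 lower and 1 higher. Of 33 nuclear respiratory chain genes 3 fell, Atp5a1 (-0.60), Sdha (-0.53) and Uqcrc2 (-0.40), and Cox6a1 rose (0.77). Animals 76 and 77 alone called 1 higher and 7 lower, beside 4.62% and 4.08% of all genes. Animals 82 and 83 alone called 5 higher and 4 lower, beside 17.2% and 18.6% of all genes. None of the 13 genes of the mitochondrial DNA was called by limma with all 4 animals or with animals 76 and 77 alone (medians -0.10 and 0.21), and with animals 82 and 83 alone 1 was higher and 1 lower (median -0.54).

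Of 19 thermogenic genes 6 fell and none rose (median -0.39), and 4 fell with animals 76 and 77 alone and 9 with animals 82 and 83 alone. Ppargc1a, the coactivator PGC-1alpha that drives mitochondrial genes, was 34.2, 25.7, 30.4 and 29.8 at p21 and 14.7, 16.2, 15.0 and 17.5 at DW. Its DW animals were close together and below all p21 animals (log2 change -0.88 ± 0.20 SE, limma adjusted p = 0.00548). Dio2, which activates thyroid hormone (-1.23), the potassium channel Kcnk3 (-0.72) and the mitochondrial protein Letmd1 (-0.67) fell too. Ucp1, the uncoupling protein, was 33.7, 218, 454 and 271 at p21 and 122, 133, 203 and 124 at DW. Its p21 animals spanned the DW range, and it was not called (-0.29 ± 0.57 SE, limma adjusted p = 0.791).

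Cidea, a lipid droplet protein of brown and beige cells, followed the pairs, with 545 and 497 in animals 76 and 77 and 185 and 133 in animals 82 and 83 against 382 to 626 at p21 (-0.92, limma adjusted p = 0.104). Adrb3, the receptor through which nerves switch on lipolysis and heat, was 69.5 to 77.7 at p21 and 109 to 151 at DW (log2 change 0.77 ± 0.16 SE, limma adjusted p = 0.00324). The droplet protein Plin5 fell (-0.80). Dio2, Kcnk3, Adrb3 and Plin5 were called with animals 82 and 83 alone and not with animals 76 and 77 alone.

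**Figure D4:**
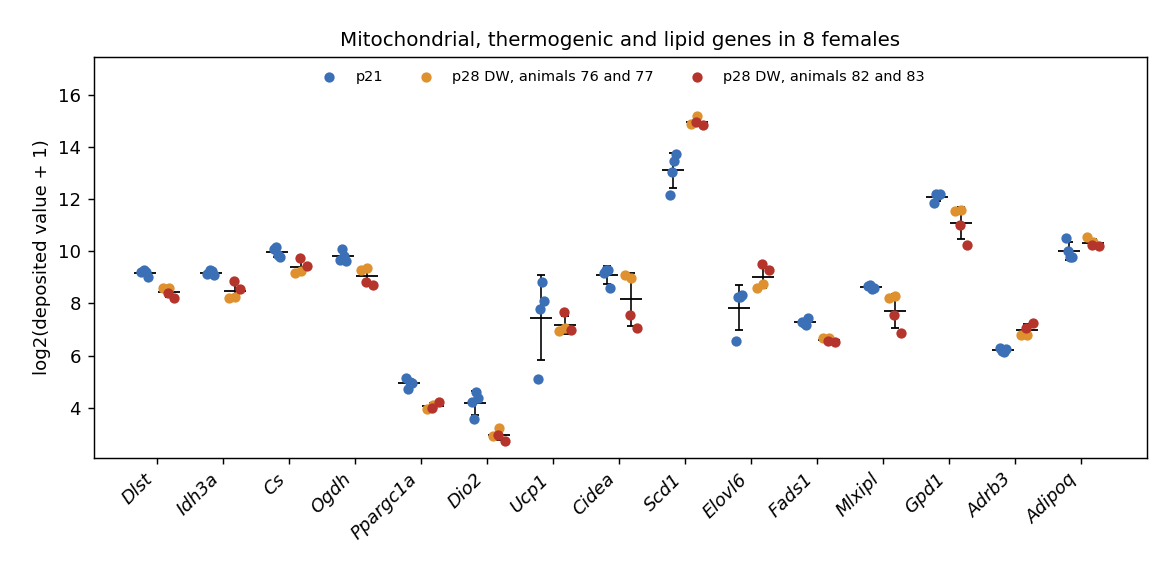
Level of 15 mitochondrial, thermogenic and lipid genes as log2(deposited value + 1) (y axis) in each p21 female and each p28 DW female, with animals 76 and 77 and animals 82 and 83 in separate colours. Scd1 and Adrb3 are higher and Dlst, Idh3a, Ppargc1a and Fads1 lower in every DW animal, Ucp1 overlaps, and Cidea separates the DW pairs.

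Among 21 adipocyte transcription factors and hormones 4 rose and 1 fell, beside 5.95% and 6.16% of all genes. Animals 76 and 77 alone gave 3 rises and 1 fall, beside 4.62% and 4.08% of all genes. Animals 82 and 83 alone gave 4 rises and 6 falls, beside 17.2% and 18.6% of all genes. Rbp4, the retinol carrier secreted by fat, was 95.4 to 132 at p21 and 175 to 233 at DW (log2 change 0.81 ± 0.14 SE, limma adjusted p = 0.000625). Mest, an imprinted gene known to track the expansion of fat, was 24.7 to 34.6 at p21 and 53.5 to 97.8 at DW (log2 change 1.20 ± 0.22 SE, limma adjusted p = 0.00152). Npr3, the clearance receptor for natriuretic peptides, rose by 1.17, with 0.72 (limma adjusted p = 0.283) and 1.62 in the pairs. Sncg rose by 0.93, to 359.7 and 327 in animals 76 and 77 while animals 82 and 83 (202 and 194) lay near the top of the p21 range of 71.8 to 199. Ebf1, an early factor of adipocyte differentiation, fell (-0.70, limma adjusted p = 0.00191). Leptin (Lep, 0.12), Pparg (-0.21) and Cebpa (0.02) were not called. Nnat, an imprinted gene of fat and brain, was at -0.57 with DW and -1.92 with SW, and was higher in DW than in SW females (1.35, limma adjusted p = 0.0381). That call was not held by animals 76 and 77 alone (1.39, limma adjusted p = 0.414) and was held by animals 82 and 83 alone (1.30, limma adjusted p = 0.0155).

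Of 19 progenitor markers 6 rose and 1 fell, with a median of 0.12. Animals 76 and 77 alone gave 4 rises and 1 fall (median 0.42), and with animals 82 and 83 alone 6 rose and 6 fell (median 0.17). The risers with all 4 were Cd55 (0.70), Anxa3 (0.74), Wnt2 (0.85), Ly6a (Sca-1, 0.91), Sema3c (1.03) and Cd34 (0.53). Cd55, a surface regulator of complement found on stromal progenitors, was 33.1 to 39.9 at p21 and 53.7 to 65.6 at DW, and its change was 0.71 and 0.70 in the pairs (limma adjusted p = 0.000273 with all 4 animals). The faller was Dlk1 (preadipocyte factor 1), which holds preadipocytes back from differentiation. It was 23.5, 9.51, 7.94 and 9.14 at p21 and 3.56, 3.55, 2.6 and 1.29 at DW (log2 change -1.77 ± 0.26 SE, limma adjusted p = 0.000226). The rises of Sema3c, Wnt2, Ly6a and Cd34 were not held by animals 76 and 77 alone (limma adjusted p = 0.129, 0.114, 0.0617 and 0.0934). Pdgfra (0.12) and Dpp4 (0.41) were not called.

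Of 32 matrix glycoproteins and proteoglycans 5 rose and none fell, with a median of 0.22. Animals 76 and 77 alone gave 6 rises and no fall, beside 4.62% and 4.08% of all genes. Animals 82 and 83 alone gave 5 rises and 4 falls, beside 17.2% and 18.6% of all genes. Dpt (dermatopontin, which organises collagen fibrils) was 269, 228, 232 and 259 at p21 and 480.4, 431, 636 and 698 at DW, without overlap (log2 change 1.16 ± 0.18 SE, limma adjusted p = 0.000314). The keratan sulphate proteoglycan lumican (Lum) rose by 1.00, the microfibril protein Mfap5 by 0.85 and tenascin C (Tnc) by 0.54. Lum (0.57 with animals 76 and 77, limma adjusted p = 0.19) and Mfap5 were not called with that pair alone, nor Tnc with animals 82 and 83 alone. Kera, at low values, was 0.269 to 0.916 at DW and 1.98 to 4.29 in SW females (DW minus SW -1.08, limma adjusted p = 0.000317). Either pair alone also called Kera against SW (limma adjusted p = 0.0139 with animals 76 and 77, 3.23e-05 with animals 82 and 83). Of 22 collagens only Col8a1 was called (1.00, limma adjusted p = 0.000615). Col1a1 was 2110.0 and 3118 in animals 76 and 77 and 1111 and 915 in animals 82 and 83, against 1829 to 2426 at p21 (-0.39, limma adjusted p = 0.519), and the collagen medians of the pairs were 0.45 and -0.28. Cd248, a stromal surface protein, was called up with animals 76 and 77 alone (1.18) and down with animals 82 and 83 alone (-1.34).

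In the insulin-like growth factor and growth hormone axis 1 of 20 genes rose, Igfbp7 (0.37), and 3 fell, beside 5.95% and 6.16% of all genes. Igf2, the fetal growth factor, was 7.25, 3.58, 4.65 and 5.02 at p21, 2.71 and 2.62 in animals 76 and 77, and 0.49 and 0.425 in animals 82 and 83 (log2 change -1.37 ± 0.41 SE, limma adjusted p = 0.0302). edgeR's quasi-likelihood test gave it an edgeR adjusted p of 0.0748. Igfbp3, which binds the growth factors outside the cell, and Stat5a, which carries the growth hormone signal, fell (-0.92 and -0.59). None of Igf2, Igfbp3, Igfbp7 and Stat5a was called with animals 76 and 77 alone, where Stat5a was at -0.30 (limma adjusted p = 0.11), and all 4 were with animals 82 and 83 alone. Igf1 (-0.01) and the growth hormone receptor Ghr (0.06) were not called.

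Several smaller lists held falls. Of 14 Schwann cell markers 6 fell and none rose (median -0.55), among them Ncmap (-1.04), Prx (-0.77), S100b (-0.65), Gjc3 (-0.65) and Pmp22 (-0.41), genes of myelin or of the cells that make it. Ncmap was 5.62 to 12.0 at p21 and 2.3 to 4.75 at DW, without overlap. The fit of animals 76 and 77 alone called 1 of the 14 and that of animals 82 and 83 alone called 8. Without p21 animal 30 the list had 3 calls, and without animal 36 or animal 56 it had 2.

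Of 18 clock genes the output factors Hlf (-1.06) and Tef (-0.85) and Per3 (-0.77) fell. The hour of dissection is not given in the sources used here. Tef was 110.2, 44.7, 97.7 and 111 at p21 and 36.9 to 56.8 at DW, so p21 animal 36 lay with the DW animals. Without animal 36, 6 clock genes fell and 2 rose, and without animal 30, 55 or 56, 1 fell. Only 1 fell with animals 76 and 77 alone, and with animals 82 and 83 alone 6 fell and 1 rose. Of 19 ATF4 targets, genes of the amino acid stress response, 4 fell, led by asparagine synthetase Asns (-0.92) and Phgdh (-0.76) of serine synthesis. The pairs alone gave 3 falls (animals 76 and 77) and 6 falls (animals 82 and 83).

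Of 18 vessel markers 2 rose and 1 fell, beside 5.95% and 6.16% of all genes. The tight junction protein Cldn5 rose by 1.13 and the apelin receptor Aplnr by 1.23, and the VEGF receptor Flt1 was 177 to 229 at p21 and 92.1 to 137 at DW (log2 change -0.80 ± 0.14 SE, limma adjusted p = 0.00088). Of 35 Wnt pathway genes 3 rose and 1 fell (median 0.06), beside 5.95% and 6.16% of all genes. The faller was Lgr6, a receptor that strengthens Wnt signals (-1.23), with like values in the pairs (-1.25 and -1.22). The call of Aplnr was not held by animals 76 and 77 alone. Of 36 TGF-beta and BMP pathway genes 1 rose and 1 fell, and the riser was Inhbb, the activin B subunit (1.12).

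Of the 12 largest rises among called genes without overlap, 6 were major urinary proteins (Mups), lipocalins best known from liver and urine. Of 19 Mup genes 16 rose, with a median of 1.34, and 11 and 16 rose with animals 76 and 77 and with animals 82 and 83 alone. Mup genes are nearly identical, so the level of a single Mup is uncertain and their sum is given. It was 30.2, 51.8, 90.8 and 94.5 at p21 and 324, 258, 421 and 603 at DW, without overlap. SW females lay between 476 and 740.0, and DW males between 207 and 318 against 33.9 to 55.9 in p21 males. The other large rises were Hephl1, a copper-bearing ferroxidase (2.58), Wfdc17 (2.04), Tmem45b (2.00), the epithelial protease Tmprss2 (1.95), Scd1 (1.85) and the fibrinogen chain Fgb (1.85). edgeR's quasi-likelihood test did not call Tmprss2 (edgeR adjusted p = 0.368) or Fgb (edgeR adjusted p = 0.136).

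Hephl1 was 0.416 to 1.89 at p21 and 6.8 to 16.6 at DW (log2 change 2.58 ± 0.28 SE, limma adjusted p = 1.83e-05). Tmem45b was 7.49 to 14.0 at p21 and at least 24.2 at DW, with a change of 1.29 in animals 76 and 77 and 2.71 in animals 82 and 83. Large falls besides the red cell genes and Dlk1 were angiotensinogen (Agt, -2.23), the annexin Anxa8 (-2.10), Reep6 (-1.76) and proline dehydrogenase (Prodh, -1.64). Agt, the precursor of angiotensin, was 195, 90.0, 91.6 and 131 at p21 and 53.0, 41.6, 15.3 and 11.0 at DW (limma adjusted p = 0.000962). In Agt, Anxa8 and Prodh p21 animal 30 was the highest of its group, and without it all 3 were still called (limma adjusted p = 0.00552, 0.00229 and 0.00828). Reep6 was 95.1 to 148 at p21, 89.4 and 63.9 in animals 76 and 77 and 19.3 and 12.3 in animals 82 and 83, and animals 76 and 77 alone gave -0.65 (limma adjusted p = 0.208).

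Mammary epithelial markers were present in all 8 females. Of 19 luminal markers 6 rose by limma and none fell (median 0.75), while edgeR's quasi-likelihood test called none. The 6 were Tmprss2 (1.95), the keratin Krt19 (1.79), the claudins Cldn4 (1.35) and Cldn7 (0.70), Esrp1 (1.04) and Prom1 (0.63), and 3 were called without p21 animal 55. The pairs gave 6 rises (animals 76 and 77) and 4 rises (animals 82 and 83). Prom1 was not called with animals 76 and 77 alone, nor Krt19 and Esrp1 with animals 82 and 83 alone. The luminal markers Krt8, Krt18 and Epcam were not called with all 4 animals (limma adjusted p = 0.196, 0.134 and 0.213). Krt19 was 6.58, 11.0, 4.59 and 14.7 at p21, 53.5 and 46.4 in animals 76 and 77 and 19.5 and 20.1 in animals 82 and 83. The summed level was 137, 184, 87.2 and 279.9 at p21 and 373, 357, 209 and 241 at DW, so p21 animal 56 lay above DW animals 82 and 83. Csn3, not called (0.18, limma adjusted p = 0.91), gave 91.1 of the sum in p21 animal 56, and 34.9 and 32.5 in DW animals 82 and 83. The sum was 432 to 586 in SW females, above every DW female. Between DW and SW females 3 of the 19 were called, all lower in DW, beside 0.812% of all genes: Cldn3 (-1.36), Cldn4 (-0.81) and Cldn7 (-0.68). With DW animals 76 and 77 alone none of the 19 was called against SW. With animals 82 and 83 alone 9 were lower, beside 20.8% of all genes. The progesterone receptor Pgr rose by 1.41 (limma adjusted p = 0.00226, edgeR adjusted p = 0.271) and the oxytocin receptor Oxtr by 1.60, the latter without a call by animals 76 and 77 alone. Oxtr also rose in DW males (1.19, limma adjusted p = 0.0316), where it was 14.0 to 18.8. Of 12 basal epithelial markers, Oxtr among them, 1 rose and none fell (median 0.15), beside 5.95% and 6.16% of all genes.

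The test of the difference between the female and the male change from p21 to DW called 11 genes (0.0687%), 7 with a higher and 4 with a lower change in females. Capn8, a calpain of epithelia, was 0.251 to 0.88 in p21 females and 2.46 to 3.8 in DW females (1.49), and the male change was 0.03 (difference 1.46, limma adjusted p = 0.000304). In males Capn8 was hardly detected, with 0.0 to 0.149 at p21 and 0.0 to 0.115 at DW. The tetraspanin Tspan1 changed by 1.28 in females and 0.03 in males (limma adjusted p of the difference = 0.0378). It too was hardly detected in males, with 0.0 to 0.0913 at p21 and 0.0 to 0.179 at DW. In edgeR's quasi-likelihood test the female rises of Capn8 (edgeR adjusted p = 0.0853) and Tspan1 (0.218) were not called. Lpin1, the phosphatase that makes diacylglycerol for triglyceride, was 315 to 459 in p21 females and lower in every DW female (-0.55), and its male change was 0.58 (limma adjusted p of the difference = 0.0378). Gpat4, which starts triglyceride synthesis, changed by -0.44 in females and 0.41 in males (limma adjusted p of the difference = 0.0378). The female falls of Lpin1 and Gpat4 were not called with animals 76 and 77 alone (-0.38 and -0.37).

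Gramd1b, a sterol carrier, was at -0.41 in females (limma adjusted p = 0.0642) and 0.80 in males (limma adjusted p of the difference = 0.0378). The other 6 genes were Cyp3a57, Itih2, Plekhh1, Arhgef37, Ccl7 and Capsl. edgeR's quasi-likelihood test called no gene for the difference between the sexes, with 2688 at an unadjusted p under 0.05 against 2723 by limma. No luminal marker was called by limma from p21 to DW in males, where their summed level was 16.9 to 50.3 at p21 and 20.7 to 35.0 at DW.

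**Figure D5:**
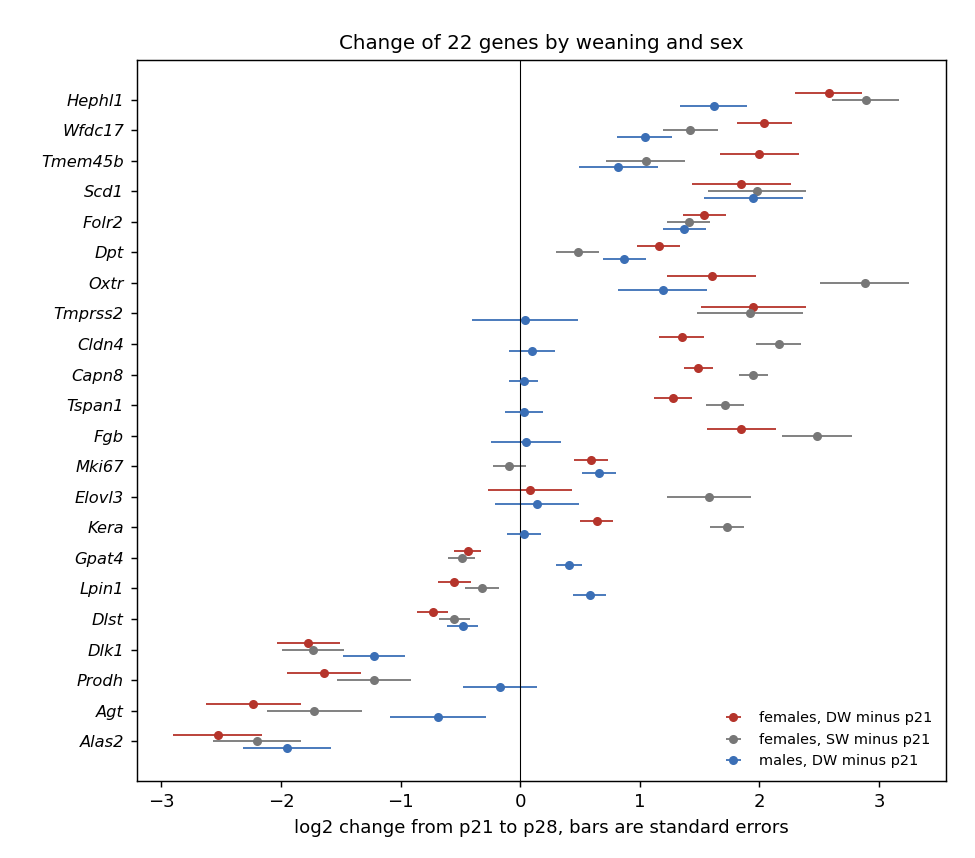
Log2 change from p21 to p28 (x axis, bars are standard errors) of 22 genes in DW females, SW females and DW males, where the DW and SW female changes share the p21 animals. Scd1 (1.85, 1.98 and 1.95) and Dlst (-0.73, -0.55 and -0.48) had 1 sign in the 3 groups, and Gpat4 and Lpin1 had opposite signs in females and males. Capn8, Tspan1 and Fgb had changes near zero in males, where they were hardly detected (values of at most 0.179).

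The authors' deposited table gives its own comparison of the same groups, with 4397 of 16108 genes at an adjusted p under 0.05, 2353 higher and 2044 lower at p28 DW. Of the authors' deposited list 1895 genes were called by limma in the same direction, which is 43.1% of that list and 97.8% of the limma list.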

How the data were processed

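Inguinal white fat of 24 mice in 6 groups of 4 was measured, and 8 libraries carry this comparison. Per the submitters' processing notes, fastp, HISAT2, featureCounts, DESeq2 1.38.3 and the build mm10 were used; the order and settings are not given in the sources used here. The deposited values are a signal: gene read counts divided by a factor per library, since every value was a whole multiple of 1 step per library (100.0% whole within 0.1 read). The table held 16208 rows, of which 90 repeated gene identifiers and were dropped, leaving 16118 genes. Groups follow the description and age labels; the titles of the p21 females read p28, and the title of 1 of them gives another animal number.

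Values were tested as log2(value + 1) with limma 3.58.1 (lmFit and eBayes with trend, R 4.3.3), fitted over all 24 libraries and 6 groups without covariates, after edgeR 4.0.16's filter on low values (minimum count 10) left 16005 genes. A p-value was adjusted by Benjamini-Hochberg over all 16005 genes, with a threshold of 0.05; the authors' deposited table has its own log2 changes and p-values. On simulated counts with 200 genes changed by a log2 of 1, the fit of DW against p21 recovered 125 (62.5%) with 6 false calls. The simulated animals were drawn independently, without the split of the DW pairs or a GC trend, so these counts do not carry over to the real libraries. Alternatives were edgeR, DESeq2 1.42.0, other scalings, filters and pseudocounts, the compared groups alone, marker covariates and leaving out animals. GC-corrected values (GC content known for 99.86% of genes) and, for the sex difference and DW against SW, each DW pair alone were added after seeing the data. The comparison, the gene lists and the tests were chosen with earlier results of these data known. The text names members of the lists, the 5 called genes with the smallest p for the sex difference, and the 12 genes that rose most and the 12 that fell most, taken from calls without overlap of the groups and with a mean log2 level of 2 or more; 1 of the latter 12 and some list members are not reported here. Coordinates are from RefSeq GRCm38.p6, and no gene coordinates of the table are printed because its header names no build. No 2 libraries of a group were duplicates (smallest chi-square per degree of freedom 77.1).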

Additional observations from a re-analysis of the deposited data

Results flagged for a closer look

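Of 66 groups of 4 animals tested for a stray animal (4 library measures and 29 genes in the p21 and DW females), 4 had an animal whose gap to the nearest other, as a share of the group's range, exceeded Dixon's 95% critical value; chance gives about 1 in 20. p21 animal 56 had 16.6% of reads in genes of the mitochondrial DNA, against 20.8% to 21.2% in the other p21 females. In p21 animal 36 the correlation of the deviation with GC content was 0.301, against -0.0837 to -0.0636. In p21 animal 30 Anxa8 was 7.77 on the log2(value + 1) scale, against 5.52 to 5.81, and Dlk1 was 4.61, against 3.16 to 3.39.

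For 5 named genes the change from p21 to DW differed between females and males by limma's test of the difference. The female minus male change was 1.46 for Capn8, -1.20 for Gramd1b, 1.26 for Tspan1, -0.85 for Gpat4 and -1.13 for Lpin1. Capn8 and Tspan1 were hardly detected in the p21 and DW males. edgeR's quasi-likelihood test called none of these differences.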

How the results depend on the processing

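Between p21 and DW, the count of 1938 called genes ranged from 1392 to 2475 under the other planned and added settings, apart from the following. It was 5743 without DW animals 76 and 77 and 495 with the compared groups alone. The main fit takes the spread from all 6 groups, and the fit of the compared groups takes it from those alone. Why that fit called fewer genes was not tested. Leaving out 1 animal gave 1071 (without DW 83) to 3123 (without DW 76). For the difference between the sexes, 11 genes became 329 with DESeq2, 32 with GC-corrected values, 7 with the compared groups alone, 4504 without animals 76 and 77, and 0 with edgeR under either scaling or a pseudocount of 0.1 (2688, 2689 and 2684 at an unadjusted p under 0.05); leaving out 1 animal gave 1 (without p21 30) to 52 (without DW 77). For DW against SW, 204 genes became 71 with edgeR, 1 with the compared groups alone, 5941 without animals 76 and 77, and 7 without animals 82 and 83; leaving out 1 animal gave 45 (without DW 82) to 1996 (without DW 76). Where not stated, the cause was not tested. Of the 175 named genes called, 58 were called under all 21 alternatives and none reversed while called. Uncalled changes that took the other sign past the threshold or in size were Fh1 (0.30 without animals 76 and 77), Cd248 (1.18 without animals 82 and 83) and Csn3 (-1.84 with marker covariates). No paired analysis was possible because animal numbers are not shared between the groups.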
